A study of Rattus norvegicus with 6 samples.

Results

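Transcripts of 36 nuclear genes for subunits of respiratory complex I were followed in the rat renal cortex after 4 weeks of phenolphthalein. The genes were given by name as a family, with no cut on measured values, and an array probe was matched to 31 of the 36 through its RefSeq accession. Those 31 were among 34416 features tested, of which 12269 were named genes. The other 5 members, Ndufa3, Ndufa8, Ndufa13, Ndufc1 and Ndufs6, were matched to no probe and were not analysed here. All 31 matched members were well above background on all 6 arrays, so the filter on dim probes removed none of them.

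Complex I is the entry point of the respiratory chain for electrons from NADH. Its hydrophilic arm carries the flavin and the iron-sulfur clusters that pass those electrons to ubiquinone, and its membrane arm uses the energy released to pump protons out of the mitochondrial matrix. Conserved core subunits do the chemistry, some of them encoded by mitochondrial DNA, and accessory subunits encoded in the nucleus surround and stabilise them. In the renal cortex the proximal tubule is rich in mitochondria, which supply the ATP for reabsorption.

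The study compared male Sprague-Dawley rats of the Crl:CD(SD) stock, bought at 5 weeks of age. The vehicle group, 3 rats, received corn oil, and the phenolphthalein group, 3 rats, received phenolphthalein, a pH indicator dye once sold as a laxative, at 1000 mg/kg/day. Both groups were treated for 4 weeks and shared diet, housing and stock. Total RNA of the renal cortex of each rat was labelled with Cy3 and read on a 1-colour Agilent rat array. The model is limited to 1 dose, 1 time and 1 sex, and bulk cortex mixes all its cell types. In such RNA, fewer cells of a type and less RNA per cell cannot be told apart.

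Values are log2 spot intensities relative to the 75th percentile of each array, so that 0 is that percentile, and a difference is phenolphthalein minus vehicle. Between 64.8% and 72.1% of the spots of an array were well above background and none was saturated. Precision was limited by having 3 arrays in each group. The vehicle arrays shared 1 slide, phenolphthalein replicates 2 and 3 a different one, and phenolphthalein replicate 1 was on a slide of its own, each slide with its own scan day. The vehicle slide and the vehicle group therefore cannot be told apart. Markers of proximal tubule such as Slc34a1, the brush border phosphate transporter (between 7.83 and 8.06 over the 6 arrays) and of thick ascending limb such as Umod (uromodulin, between 8.68 and 8.86) were well above background on all 6 arrays.

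Promoter sequences show what the members share in their DNA, independently of the array values. Promoters of 300 bases, 250 before and 50 after the annotated start, were taken from RefSeq on the GRCr8 build for 34 of the 36 members. Motifs were searched on both strands as exact letters. The YY1 motif AAGATGGC, bound by a zinc-finger factor, was in 8 of the 34 member promoters (23.5%) against 3.44% of all 27457 promoters. Each of the 8 matches lay on the gene's own strand and just after its start, the first base of the match falling between positions 5 and 27 where the start is 1. The 20-base windows around them are printed because this was the motif most frequent in the members, with the motif in capitals.
Ndufs7 (chr7:10110481-10110500, minus strand): gaggccAAGATGGCggcgct
Ndufs4 (chr2:47794897-47794916, minus strand): cacaggAAGATGGCggcggt
Ndufs6 (chr1:31797417-31797436, plus strand): gtcggcAAGATGGCggcggc
Ndufa2 (chr18:28631845-28631864, minus strand): ctagcaAAGATGGCggccgc
Ndufa6 (chr7:115750289-115750308, minus strand): cttagcAAGATGGCggccgc
Ndufa3 (chr1:74515529-74515548, minus strand): aagaccAAGATGGCtgctag
Ndufa9 (chr4:161374147-161374166, minus strand): tgggagAAGATGGCggccgc
Ndufb8 (chr1:253362902-253362921, minus strand): aaggtgAAGATGGCggcgtc
In all of these windows except that of Ndufa3 the motif runs on into ggc. The motif holds the letters ATG, and whether these are the start of the coding sequence was not examined. Of these 8 genes, 6 were measured, and their log2 differences ran from -0.12 in Ndufs7 to 0.03 in Ndufa6.

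Other motifs were less frequent in the members. The ETS motif CCGGAAG, read by GABP among others, was in 7 of 34 member promoters (20.6%) against 9.22% of all. The Sp1 motif GGGGCGGGG was in 3 of 34 (8.82%) against 10.4%. The short NRF1 motif GCGCATGC, part of the site of a regulator of respiratory genes, was in 2 of 34 (5.88%) against 2.66%. The full NRF1 motif, the same letters followed by GC, was in 1 of those (2.94% of 34) against 0.932%. At least 1 of all the motifs searched, YY1 included, was in 16 of 34 member promoters, against 22.3% of all promoters. These are matches of letters and not measured binding sites. The 250 bases before the start are printed for Ndufs8 and Ndufb6, the members with the smallest p-values described below, and for Ndufa11, the member with the full NRF1 motif.
Ndufs8 (chr1:210573699-210573948, minus strand): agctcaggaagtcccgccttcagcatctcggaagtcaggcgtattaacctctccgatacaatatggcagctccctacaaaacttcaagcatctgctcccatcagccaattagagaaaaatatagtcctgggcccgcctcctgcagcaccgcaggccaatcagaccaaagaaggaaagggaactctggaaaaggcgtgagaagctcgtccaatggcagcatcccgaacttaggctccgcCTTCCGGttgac
Ndufb6 (chr5:60206153-60206402, minus strand): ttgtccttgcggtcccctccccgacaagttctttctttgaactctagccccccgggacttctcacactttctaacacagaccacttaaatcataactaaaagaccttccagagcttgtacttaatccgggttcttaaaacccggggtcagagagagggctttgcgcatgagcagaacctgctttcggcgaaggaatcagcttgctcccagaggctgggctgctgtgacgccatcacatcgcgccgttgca
Ndufa11 (chr9:1637364-1637613, plus strand): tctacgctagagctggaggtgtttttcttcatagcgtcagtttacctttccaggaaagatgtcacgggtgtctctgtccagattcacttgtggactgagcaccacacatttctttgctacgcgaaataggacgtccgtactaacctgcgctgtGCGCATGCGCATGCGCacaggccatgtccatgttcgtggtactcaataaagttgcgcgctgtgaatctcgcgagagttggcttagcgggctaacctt
Capitals mark the matches. In Ndufs8 they are an ETS match on the opposite strand, whose first base on the gene strand lies at position -12. In Ndufa11 they are 2 overlapping NRF1 matches that begin at -97 and -91. None of the searched motifs was found in the window of Ndufb6, which says only that those letters are absent from it.

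No complex I transcript differed between the groups past the threshold. With limma's moderated test and Benjamini-Hochberg adjustment over all features, 0 of 31 members had an adjusted p under 0.05, and neither did any other feature (0% of 34416). The smallest adjusted p of a member was 0.537 and the largest 0.984. At an unadjusted p under 0.05, 2 members were lower (6.45%), against 4.92% of all features, and 0 were higher, against 3.94%. The share of members is near that of all features. The differences were small throughout, from -0.14 in Ndufs1 to 0.11 in Ndufa7, which are changes of -9.05% and 8.15%.

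The intervals bound how far the groups could be apart. The 95% interval of the difference lay within 1.2-fold either way in 27 of 31 members and within 1.1-fold in 8. The lowest bound of any member was -0.28, a change of -17.8%, and the highest was 0.36, a change of 27.9%, for Ndufa7. Rats of a group resembled each other closely, with a median SD over members of 0.0471 in vehicle and 0.0497 in phenolphthalein. Ndufa10, an accessory subunit related to nucleoside kinases, had the widest vehicle spread, with an SD of 0.205.

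Most estimates lay on the low side. The difference was below 0 in 26 of 31 members (83.9%), against 54.1% of all features, and its median was -0.03 for the members and -0.02 for all features. With quantile normalization of the arrays in place of the percentile, 18 of 31 members lay below 0 (58.1%), against 51.4% of all features. The 3 phenolphthalein values all lay below the 3 vehicle values in 7 members (Ndufb6, Ndufs8, Ndufs1, Ndufv1, Ndufs7, Ndufb5 and Ndufa11), against 9.02% of all features. They all lay above in 0 members, against 6.64% of all features.

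**Figure D1:**
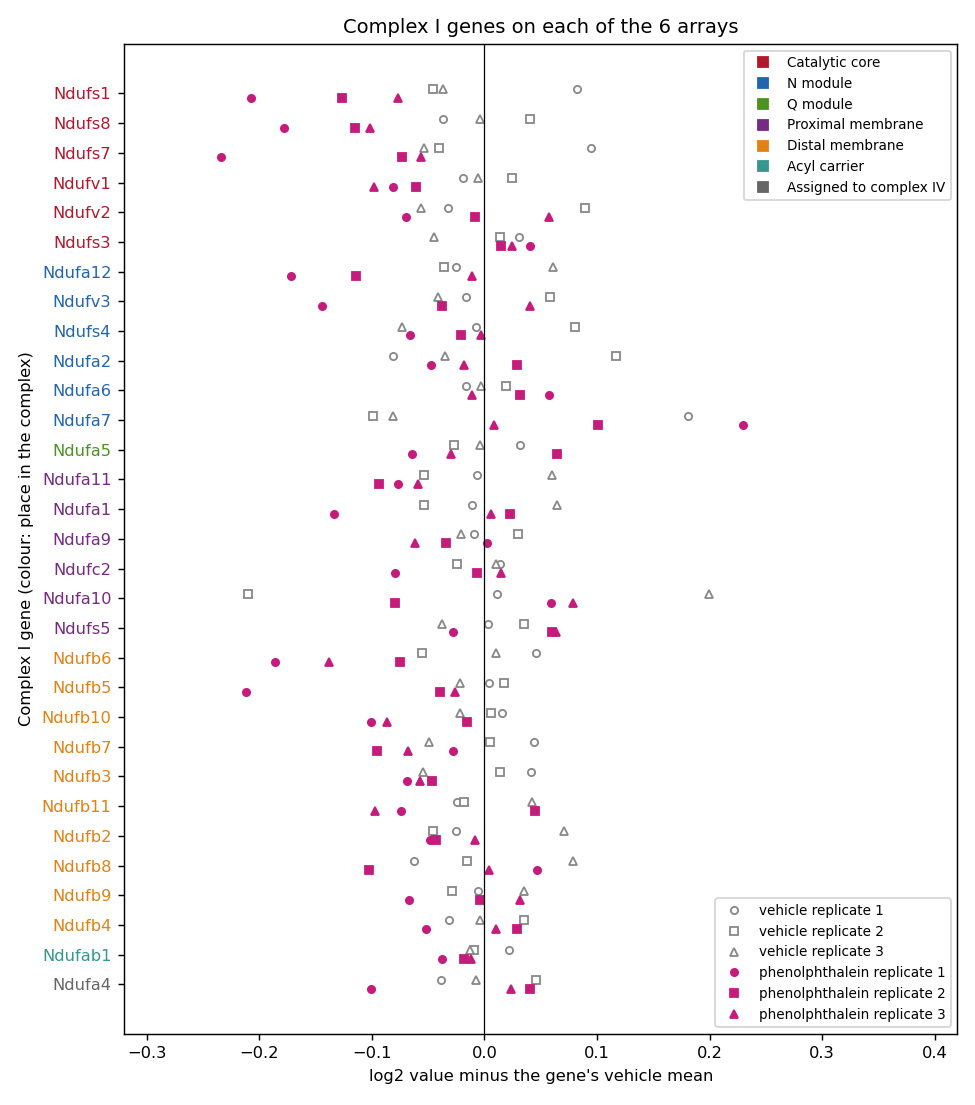
Each of the 31 members has a row, with 1 point per array for its log2 value minus its vehicle mean, open for vehicle and filled for phenolphthalein, and gene names coloured by place in the complex. Phenolphthalein replicate 1 (filled circles) gives the lowest value in 18 of 31 rows.

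Phenolphthalein replicate 1 stood lowest in much of the family. Replicate numbers here are those of the scanner files, and the deposited value table gives the same arrays other numbers within a group, so which rat bears a number is uncertain. This array gave the lowest of the 6 values in 18 of 31 members (58.1%), against 26.6% of all features. The median deviation of the members from their vehicle mean was -0.07 on that array, -0.02 on phenolphthalein replicate 2 and -0.01 on phenolphthalein replicate 3. Vehicle arrays lay between -0.0076 and 0.0049. Without that array 18 of 31 members lay below 0 (58.1%), against 52.5% of all features, and the median member difference was -0.01. The count of members whose groups did not overlap, recomputed without that array by a choice made after seeing the data, was then 9 lower (29.0%), against 14.7% of all features, and 1 higher, against 12.2%. Leaving out an array can only add to that count, so it does not show stability. The share of members below 0 was then close to that of all features.

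Core subunits of the hydrophilic arm had a median difference of -0.10, with 5 of 6 below 0 (4 with normexp or quantile normalization, where Ndufv2 lay above 0) and 4 whose groups did not overlap, against 9.02% of all features. Ndufv1, which binds NADH and the flavin, stood at 6.25, 6.30 and 6.27 in vehicle and at 6.19, 6.21 and 6.18 in phenolphthalein. All 3 treated rats lay below all controls, by a small margin (difference -0.08, SE 0.04, adjusted p = 0.625). Ndufs1, the largest iron-sulfur subunit, stood at 5.12, 4.99 and 5.003 in vehicle and at 4.83, 4.91 and 4.96 in phenolphthalein. Its treated rats were again below every control, with phenolphthalein replicate 1 lowest (-0.14, SE 0.0596, adjusted p = 0.575).

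Near the quinone site the pattern was alike. Ndufs8, an iron-sulfur subunit resembling ferredoxins, stood at 3.57, 3.64 and 3.60 in vehicle and at 3.43, 3.49 and 3.50 in phenolphthalein. The groups did not overlap (-0.13, SE 0.0527, adjusted p = 0.554), and this was 1 of the 2 members under an unadjusted 0.05. Ndufs7, which holds the last iron-sulfur cluster before ubiquinone, stood at 6.22, 6.08 and 6.07 in vehicle and at 5.89, 6.05 and 6.07 in phenolphthalein. Here the highest treated rat and the lowest control were equal at 2 decimals, so the separation was marginal (-0.12, SE 0.068, adjusted p = 0.649). The remaining core members showed no such separation: Ndufv2, an iron-sulfur subunit beside Ndufv1, differed by -0.01 and Ndufs3, of the quinone module, by 0.03. The 7 subunits encoded by mitochondrial DNA, as well as Ndufb1 and Ndufa4l2, matched no probe and were not analysed here.

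**Figure D2:**
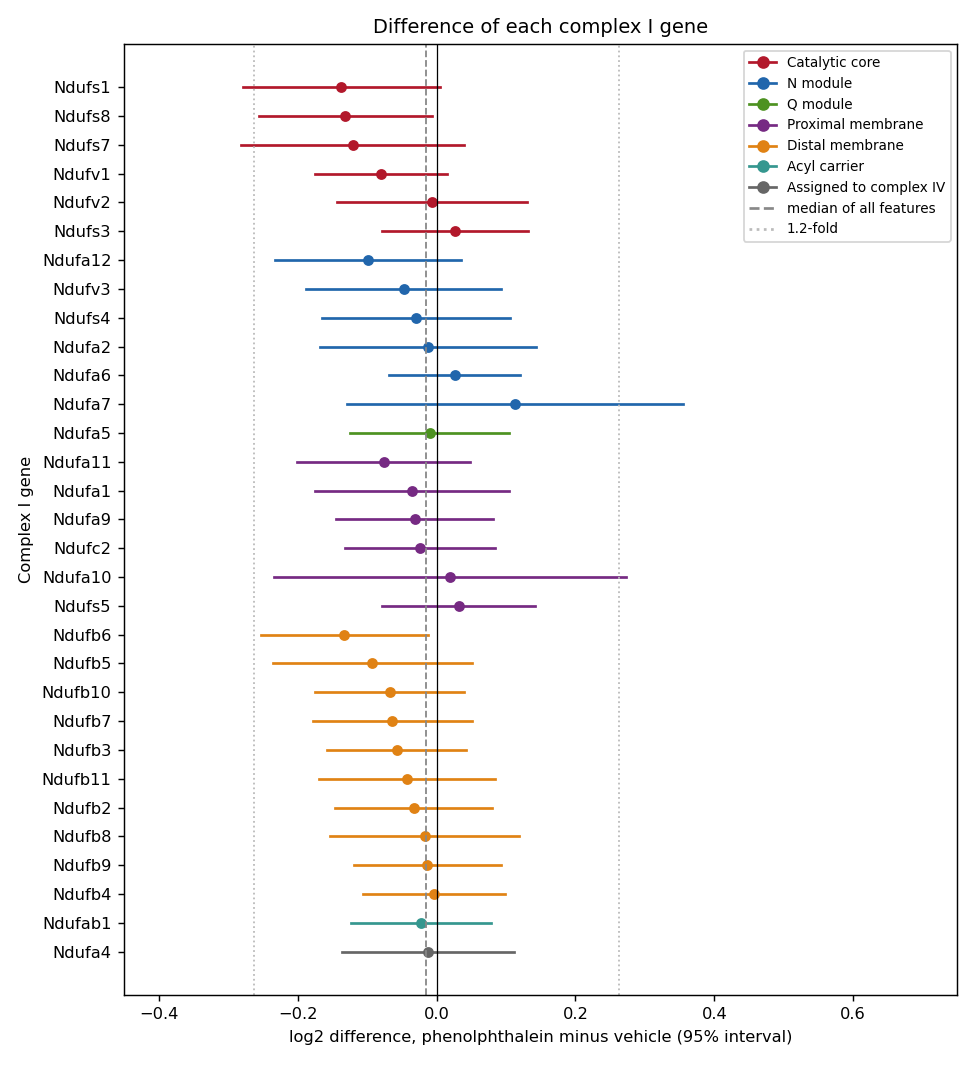
Each point is a member's log2 difference, phenolphthalein minus vehicle, with its 95% interval from limma, coloured by place in the complex; the dashed line is the median of all features and the dotted lines mark 1.2-fold. Of the 31 points 26 lie below 0 (18 with quantile normalization), and 29 of the intervals cross 0.

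Accessory subunits of the NADH-oxidising module lay close to 0, with a median of -0.02 and 4 of 6 below 0. That median turned to 0.023 without vehicle replicate 2 and to 0.0034 without phenolphthalein replicate 1. Ndufa12, an accessory subunit added late in assembly, stood at 6.41, 6.40 and 6.50 in vehicle and at 6.26, 6.32 and 6.42 in phenolphthalein. The groups overlapped on this probe (-0.10, adjusted p = 0.655), while its dimmer probe gave -0.17 with every treated rat below every control. Ndufa7, whose spots were the dimmest of the family, stood at 0.97, 0.69 and 0.71 in vehicle and at 1.02, 0.89 and 0.80 in phenolphthalein, and vehicle replicate 1 lay within the treated range (0.11, adjusted p = 0.772). Ndufs4, often mutated in Leigh syndrome, differed by -0.03, Ndufa2, with a thioredoxin fold, by -0.01, Ndufa6, a small accessory subunit of the LYR family, by 0.03, and Ndufv3, at the tip of the arm, by -0.05. Ndufa5, an accessory subunit of the quinone module, differed by -0.01.

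In or next to the membrane arm near the quinone site, 4 of 6 tested members lay below 0, with a median of -0.03. That median was 0.0019 without phenolphthalein replicate 1 and -0.0023 with quantile normalization. Ndufa11, which lies where complex I meets complex III in supercomplexes, stood at 3.87, 3.83 and 3.94 in vehicle and at 3.80, 3.79 and 3.82 in phenolphthalein. Its groups did not overlap, though its highest treated rat came close to its lowest control (-0.08, adjusted p = 0.705). Ndufa1 differed by -0.04, Ndufa9 by -0.03, Ndufc2 by -0.02, Ndufa10 by 0.02 and Ndufs5 by 0.03, each with overlapping groups.

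At the far end of the membrane arm, around the proton-pumping subunits that mitochondrial DNA encodes, all 10 accessory members lay below 0, from -0.13 to -0.0041, with a median of -0.05. With quantile normalization the median was -0.024, and Ndufb2, Ndufb4, Ndufb8 and Ndufb9 lay above 0. Ndufb6, a small membrane subunit, stood at 6.28, 6.17 and 6.24 in vehicle and at 6.04, 6.16 and 6.09 in phenolphthalein. All treated rats were below all controls, and it was the other member under an unadjusted 0.05 (-0.13, SE 0.0506, adjusted p = 0.537). Ndufb5, another membrane subunit, stood at 5.83, 5.85 and 5.81 in vehicle and at 5.62, 5.79 and 5.80 in phenolphthalein, where a single array, phenolphthalein replicate 1, lay well below the rest (-0.09, adjusted p = 0.693). Ndufb10, a subunit facing the intermembrane space, stood at 5.75, 5.74 and 5.72 in vehicle and at 5.64, 5.72 and 5.65 in phenolphthalein, with overlapping groups (-0.07, adjusted p = 0.697). Ndufb8, whose spots were the brightest of the family, stood between 7.62 and 7.76 in vehicle and between 7.58 and 7.73 in phenolphthalein (-0.02). The other members here were Ndufb7 (-0.06), Ndufb3 (-0.06), Ndufb11 (-0.04), Ndufb2 (-0.03), Ndufb9 (-0.01) and Ndufb4 (-0.0041), all with overlapping groups. Brightness differs between probes for reasons of their own, so these levels do not rank the transcripts.

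A pair of members stands apart from these modules. Ndufab1, the mitochondrial acyl carrier protein that also serves lipoic acid synthesis, differed by -0.02 with overlapping groups (adjusted p = 0.898). Ndufa4, first described with complex I and since assigned to complex IV, differed by -0.01 (adjusted p = 0.960). Leaving Ndufa4 out, 25 of 30 members lay below 0 and the median was again -0.03.

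Further probes of the same transcripts gave a partly separate reading of the same RNA. The 31 members had 52 tested probes, of which 43 lay below 0, against 53.4% of 43473 tested probes. For 15 probes the groups did not overlap on the low side, against 8.9% of all tested probes, and for 0 on the high side. Of the 10 core probes, 9 lay below 0 and 8 had groups that did not overlap. Both probes did so in each of Ndufv1 (-0.17 and -0.08), Ndufs1 (-0.15 and -0.14), Ndufs7 (-0.29 and -0.12) and Ndufs8 (-0.12 and -0.13). Probes of a transcript share the same 6 RNA samples and are not further replicates. Both probes of Ndufs8 gave nearly the same value on each array, such as 3.57 and 3.55 on vehicle replicate 1. They add little beyond 1 reading of that gene.

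**Figure D3:**
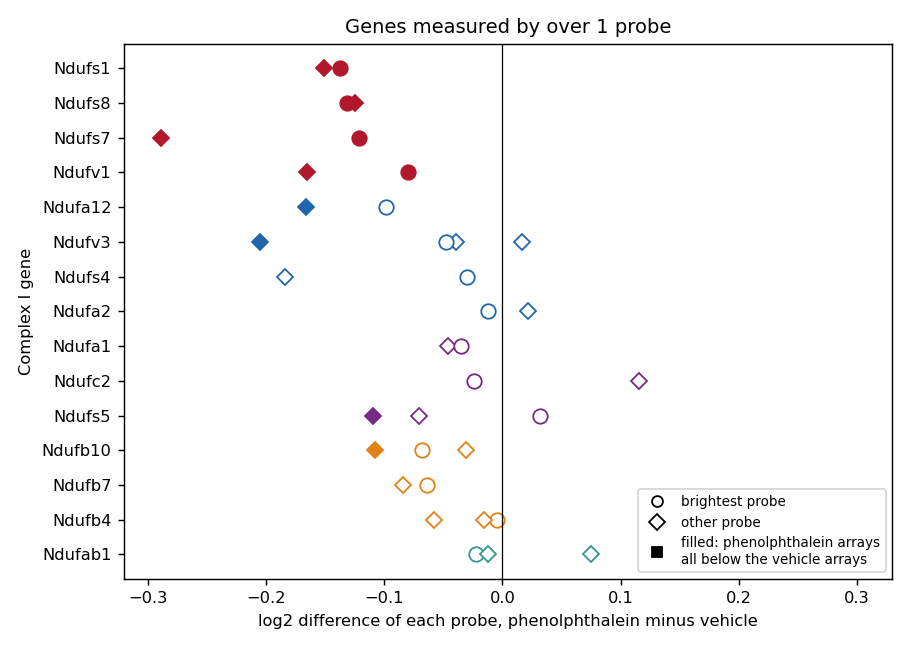
Each point is 1 tested probe's log2 difference, phenolphthalein minus vehicle, for the 15 members with over 1 tested probe; circles are the brightest probe, diamonds the others, and filled symbols have all phenolphthalein arrays below the vehicle arrays. Both probes of Ndufv1, Ndufs1, Ndufs7 and Ndufs8 are filled and below 0, while probes of 5 members fall on both sides of 0.

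Probes disagreed in sign in 5 of the 15 members with over 1 tested probe. Ndufs5 gave 0.03 on its brightest probe and -0.07 and -0.11 on the others. Ndufv3 gave -0.05 on its brightest probe and -0.20, -0.04 and 0.02 on the others. Ndufc2 gave -0.02 and 0.12, Ndufa2 -0.01 and 0.02, and Ndufab1 -0.02, -0.01 and 0.08. When each gene took the median of its probes instead, 7 members were lower at an unadjusted limma p under 0.05, against 4.92% of all features, and the smallest adjusted p among them was 0.501. These were Ndufv1, Ndufs1, Ndufs7, Ndufs8, Ndufa12, Ndufs5 and Ndufb6. The rat annotation lists pseudogenes named after 16 of the 36 members, 13 of them tested, and probe sequences were not used here, so signal from such copies cannot be separated from that of the gene.

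Assembly factors, which build the complex and are not part of it, were divided. Of 20 listed, 16 were tested, 9 were below 0 and 7 above, 0 passed the threshold or an unadjusted 0.05, and the median was -0.03. Dmac1, a membrane-arm factor, stood at 1.91, 1.92 and 1.84 in vehicle and at 1.96, 2.01 and 2.01 in phenolphthalein, without overlap (0.11, adjusted p = 0.643). Tmem186, also of the membrane-arm assembly complex, was likewise higher in every treated rat (0.07). Tmem126b differed by -0.09 and Nubpl, which delivers iron-sulfur clusters, by -0.13, both with overlapping groups. In the other direction Ndufaf7, a methyltransferase that acts in assembly, was lower in every treated rat (-0.08), a gene named after its values were seen. The median of the list was -0.0082 without vehicle replicate 2 and -0.00029 without phenolphthalein replicate 2.

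Subunits of the other respiratory complexes lay mostly on the low side as well. Of 35 tested nuclear subunits of complexes II to V, 28 lay below 0 (80%), against 54.1% of all features, and 0 passed the threshold. Groups did not overlap on the low side in 7 of the 35, against 9.02% of all features. They did not overlap on the high side in 1, against 6.64% of all features. At an unadjusted p under 0.05, 1 was lower (2.86%), against 4.92% of all features. The median was -0.05, and -0.022 without phenolphthalein replicate 1 and -0.023 with quantile normalization. By complex the counts below 0 were 1 of 4 in complex II, 7 of 8 in complex III, 8 of 10 in complex IV and 12 of 13 in complex V (ATP synthase), with medians of 0.03, -0.07, -0.06 and -0.04 (0.0012 in complex V with quantile normalization). Among them the 1 gene under an unadjusted 0.05 was Uqcrb of complex III (-0.09, groups without overlap). The lowest estimate was that of Uqcrq, also of complex III (-0.19, with overlapping groups). Atp5pd, of the ATP synthase stalk, differed by -0.14 and Cox6b1, a subunit of cytochrome oxidase, by -0.14. Sdhb, the iron-sulfur subunit and the 1 gene below 0 in complex II, differed by -0.11. Others pointed up. Sdha, the flavin subunit of complex II, differed by 0.09 with all treated rats above all controls, and Cox7b, of cytochrome oxidase, by 0.09 with overlapping groups. Phenolphthalein replicate 1 was the lowest array in 25 of these 35 genes (71.4%), as it was in most complex I members. No test set complex I against the other complexes.

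**Figure D4:**
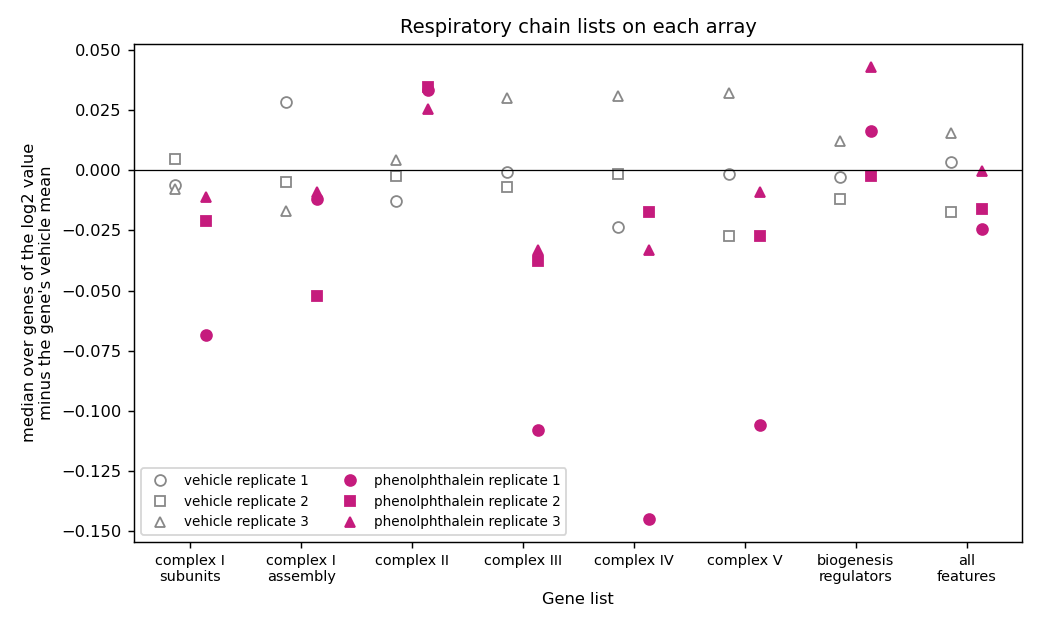
Points give, for each array, the median deviation of a gene list from its vehicle mean on the log2 scale, for complex I and the lists beside it. For the complex I members phenolphthalein replicate 1 lies at -0.07 and the other treated arrays at -0.02 and -0.01.

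Regulators and genes tied to the chain at other points lay nearer to or above 0. Of 15 regulators of mitochondrial biogenesis, 6 lay below 0, 0 passed the threshold, 1 was under an unadjusted 0.05, and the median was 0.02. Ppargc1b, a coactivator of respiratory genes, stood at 0.40, 0.34 and 0.66 in vehicle and at 0.88, 0.80 and 0.60 in phenolphthalein (0.29, SE 0.115, adjusted p = 0.547). Its groups overlapped. Ppargc1a, its relative, differed by 0.28, Yy1 by 0.08 and Tfam, the mitochondrial DNA packaging factor, by -0.04. Of 10 genes that feed the quinone pool by other routes or are tied to complex I in other ways, such as the supercomplex factor Cox7a2l (-0.07) and Aifm1 (-0.02), 4 lay below 0, 0 passed the threshold, 1 was under an unadjusted 0.05, and the median was 0.07. Prodh, proline dehydrogenase, which passes electrons to ubiquinone, stood at 4.50, 3.92 and 4.40 in vehicle and at 5.16, 4.86 and 5.14 in phenolphthalein. All treated rats were above all controls, yet it missed the adjusted threshold (0.78, SE 0.161, adjusted p = 0.434).

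Markers of other cells were measured beside the family. On a linear scale, as intensity relative to the 75th percentile, the summed level of the 31 members was 2186 to 2201 in vehicle and 2089 to 2174 in phenolphthalein. The sum over all features was also without overlap, at 239298 to 240694 in vehicle and 233001 to 238600 in phenolphthalein. Over the named genes alone the sums overlapped, at 106513 to 107765 in vehicle and 104618 to 106839 in phenolphthalein. The 10 proximal tubule markers, 5 lower and 5 higher, summed to 1499 to 1548 in vehicle and 1403 to 1589.6 in phenolphthalein, which overlap. Macrophage markers were lower in 4 of 5 tested, and summed to 26.9 to 30.5 in vehicle and 18.6 to 23.2 in phenolphthalein. T and NK cell markers were lower in 6 of 6, and summed to 2.49 to 3.42 against 1.72 to 2.35. Hepatocyte markers were higher in 8 of 8, and summed to 4.94 to 11.3 against 6.91 to 24.0; their median difference was 0.60, and -0.10 without phenolphthalein replicate 2. Distal convoluted tubule markers, 3 tested and 2 of them lower, summed to 24.9 to 26.0 in vehicle and 19.1 to 21.7 in phenolphthalein. These sums do not overlap. Slc12a3, the thiazide-sensitive transporter, differed by -0.39 (adjusted p = 0.358), but the median difference of the 3 was -0.011. Their median deviations per array overlapped, from -0.11 to 0.078 in vehicle and from -0.40 to 0.26 in phenolphthalein. Collecting duct principal cell markers were lower in 4 of 6, with sums that overlapped (136 to 186 against 103 to 143) and Aqp2, the vasopressin-regulated water channel, at -0.58. Fibroblast and smooth muscle markers were higher in 5 of 6 (22.0 to 30.0 against 29.9 to 35.4). Sums of the remaining marker lists overlapped between the groups. No tested marker of these lists was at 0 intensity, none passed the threshold, and their part in the complex I values was not tested.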

How the data were processed

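Renal cortex RNA of 6 rats was read on 1-colour arrays. The deposited files hold spot intensity with background subtraction and detrending done in Agilent Feature Extraction 10.7.1.1, per the file headers. The submitters' processing notes name version 10.7. The deposited value table holds each intensity as a ratio to its array's 75th percentile, found by comparison with the scanner files. Each of its columns matched another replicate of the same group, so it served only as an alternative.

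Outlier spots (2 to 14 per array) were set to missing. Probes were named by RefSeq accession (GRCr8 gene table): 27460 matched 1 symbol and 34197 none. The brightest probe stood for a gene, and features well above background on at least 3 arrays were kept. The 2-sided test was limma 3.58.1 (R 4.3.3; trended eBayes after lmFit), adjusted by Benjamini-Hochberg at a threshold of 0.05, and was tested on simulated data. The alternatives were normexp (offset 50), quantile normalization, median centring, the value table, other dim-probe filters, the median of probes, outliers kept, no trend, slide or replicate block, and each array left out. Normexp used the median spot signal in place of the mean that was planned. The members are a named gene family, taken by name and not by a cut on values, but the family and the lists were chosen with earlier results of these data known. Named were the 8 members with the smallest p, the smallest p of each role, the brightest and dimmest, those with probes of opposite sign, and up to 4 genes of each other list.

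Same-numbered rats of the groups did not deviate together (correlations -0.0061, -0.015 and 0.025). This cannot show that the design was unpaired, but the labels name no pairs, so the numbers were not used to pair samples.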

Additional observations from a re-analysis of the deposited data

How the results depend on the processing

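No complex I member passed the adjusted threshold under any alternative run, and of 527 member values under alternatives 484 kept their sign and 43 reversed it. Not all reversed values were small. Ndufs5 went from 0.032 to -0.11 with the median of probes, and Ndufa10 from 0.020 to -0.086 without vehicle replicate 2. The count of members lower at an unadjusted limma p under 0.05, 2 as reported, was 1 with quantile normalization and with slide as a random block, 0 with median centring and with no intensity trend, 7 with the median of probes, and 0 to 2 with 1 array left out. With the replicate number as a block, which the labels and the deviations do not call for, it was 0, and the block changed no adjusted call. Over all features, leaving out 1 array gave 0 to 1 past the threshold in each direction. Members below 0, 26 as reported, numbered 18 with quantile normalization (against 51.4% of all features), 21 with normexp and 18 to 27 with 1 array left out, the lowest without phenolphthalein replicate 1. The member median ran from -0.043 to -0.015 with 1 array left out, was -0.040 with normexp and -0.014 with quantile normalization. Signs reversed with normexp in Ndufv2 0.023, Ndufa2 0.015, Ndufa6 -0.017, Ndufa10 -0.066, Ndufc2 0.010, Ndufb4 0.016, Ndufb8 0.027, Ndufb9 0.0078 and Ndufa4 0.011, with quantile normalization in Ndufv2 0.032, Ndufa5 0.020, Ndufc2 0.0098, Ndufb2 0.00013, Ndufb4 0.034, Ndufb8 0.025, Ndufb9 0.023 and Ndufa4 0.012, with median centring in Ndufb4 0.0028, and with the median of probes in Ndufa2 0.0047, Ndufc2 0.046 and Ndufs5 -0.11. Leaving out 1 array gave ranges across 0 in Ndufa5 (-0.047 to 0.017), Ndufv2 (-0.039 to 0.038), Ndufs4 (-0.066 to 0.011), Ndufa2 (-0.053 to 0.046), Ndufa10 (-0.086 to 0.12), Ndufb4 (-0.021 to 0.020), Ndufa4 (-0.039 to 0.032), Ndufb2 (-0.056 to 0.0022), Ndufb8 (-0.049 to 0.026), Ndufb9 (-0.036 to 0.013), Ndufv3 (-0.091 to 0.0014), Ndufa1 (-0.064 to 0.014) and Ndufc2 (-0.043 to 0.0041). The cause of these reversals was not tested. With 3 arrays per group, no member's difference was told from 0 after adjustment over all features, and the unadjusted 95% interval left out 0 in 2 members.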
